A study of Mus musculus with 2 samples.

Results

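Distal peaks of the chromatin remodeller SRCAP that lie in repeat-masked sequence of the mouse genome were described, separately for the list obtained with a GFP antibody and for the list obtained with a SRCAP antibody. A peak was a member when it lay on chromosomes 1 to 19, when 50% or more of its bases were soft-masked (written in lower case) in GRCm38, and when its midpoint lay outside the window from 1000 bp upstream to 500 bp downstream of every GENCODE vM21 transcription start site (TSS). This rule gave 3047 of the 28718 peaks of the GFP list and 3094 of the 28167 peaks of the SRCAP list. Members were 15.5% of the 19711 distal autosomal peaks of the GFP list and 16.1% of the 19190 of the SRCAP list, and the rest served as the comparison, called other distal peaks. The assay was CUT&RUN, which uses an antibody to bring a nuclease to the protein and collects the DNA cut around it, in SYAT mouse embryonic stem cells (mESCs). SYAT is a CGR8 line in which both Srcap alleles carry a knocked-in YPet-AID, a fluorescent tag with an auxin-inducible degron, and in which the receptor OsTir1 is stably expressed, so both libraries carry the tag and the receptor. The GFP antibody recognises the YPet tag and the SRCAP antibody the protein itself. SYAT cells were kept routinely in Auxinole, an inhibitor of the auxin receptor that limits degradation of SRCAP without added auxin. The growth protocol names this as the control condition and gives 200 nM, whereas the methods of the study give 200 µM. The labels of the single libraries name no auxin treatment, and the study describes its map as made in control SYAT cells. There was 1 library per antibody and no replicate. The methods of the study mention CUT&RUN with the SRCAP antibody alone, and only the label of the GFP library gives its assay.

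SRCAP is the catalytic subunit of a complex that exchanges H2A for the histone variant H2A.Z in nucleosomes, mostly at promoters and enhancers. Interspersed repeats are copies of transposable elements, and fall broadly into long and short interspersed elements and elements flanked by long terminal repeats (LTRs). Full-length long interspersed elements and LTRs carry promoters of their own, whose copies are scattered over introns and intergenic sequence, and short interspersed elements carry the internal promoter of RNA polymerase III. In mESCs many of these copies are held silent by histone and DNA methylation. Repeats share sequence between copies, so reads from them can be hard to place. No repeat annotation was used here, the way the mask was made is not stated in the sources used here, and members are therefore grouped by their own sequence, with no repeat name.

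The sequences that recur among the members are shown first, as read from the plus strand of GRCm38 unless stated. Windows of 300 bp at the midpoints of the 4584 loci with a member of either list were aligned to each other, and loci that matched a common seed over 80 bp or more at 80% identity or more formed a family. In all, 3785 loci fell into 246 families of 2 or more and 799 into none, and the 5 largest families held 1373 of the 4584 loci. Each line gives 120 bases of the seed of 1 of these families, with the 40 bases covered by most of that family's alignments in capitals.
Family 1 (chr6:22752739-22752858): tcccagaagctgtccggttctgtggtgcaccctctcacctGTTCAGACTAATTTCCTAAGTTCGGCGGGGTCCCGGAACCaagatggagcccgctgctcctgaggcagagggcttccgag
Family 2 (chr13:79868699-79868818): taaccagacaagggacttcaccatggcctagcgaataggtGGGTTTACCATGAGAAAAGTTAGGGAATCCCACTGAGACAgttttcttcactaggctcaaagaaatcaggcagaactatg
Family 3 (chr4:48168808-48168927): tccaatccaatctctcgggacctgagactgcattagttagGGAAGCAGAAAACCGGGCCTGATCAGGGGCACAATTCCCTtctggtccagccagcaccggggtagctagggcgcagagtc
Family 4 (chr15:82036068-82036187): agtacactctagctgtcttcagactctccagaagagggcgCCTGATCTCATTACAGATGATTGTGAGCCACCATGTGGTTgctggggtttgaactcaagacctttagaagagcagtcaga
Family 5 (chr12:31175289-31175408): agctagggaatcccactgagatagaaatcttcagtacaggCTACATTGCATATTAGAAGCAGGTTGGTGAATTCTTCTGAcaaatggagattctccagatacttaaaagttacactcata
The seed of family 1 was a SRCAP peak with a score of 47, and those of families 2 to 5 were GFP peaks with scores of 77, 68, 21 and 45, of which only that of family 2 was shared. The seeds of families 1 and 2 were intergenic, with Gm18861 and Gm19320 as the nearest TSS, and those of families 3, 4 and 5 lay in introns of Stx17, of Xrcc6 and of 6030469F06Rik. Stx17 encodes a syntaxin of autophagosome fusion and Xrcc6 the Ku70 subunit of DNA end joining. The seeds were not all unrelated. Those of families 1 and 5 aligned over 152 bp at 77.0% identity, those of families 2 and 5 over 48 bp at 83.3%, and those of families 1 and 2 over 32 bp at 81.2%.

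The letters AAGATGGCG were taken here as the consensus of the zinc finger factor YY1. The search covered both strands in 200 bp windows at the midpoint, and most members that held the letters belonged to family 1. These letters are shown for the 4 shared GFP members with the highest scores that lay near the end of a long masked run (5000 to 7500 bp, described with the positions). They are in capitals, with 30 bases on either side. Sequences 1, 2 and 4 are from the minus strand.
Member 1 (chr4:17409150-17409218): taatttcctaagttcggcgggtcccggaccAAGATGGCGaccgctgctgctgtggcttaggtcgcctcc
Member 2 (chr12:75380057-75380125): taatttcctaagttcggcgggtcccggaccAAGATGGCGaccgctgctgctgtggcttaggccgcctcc
Member 3 (chr4:53393008-53393076): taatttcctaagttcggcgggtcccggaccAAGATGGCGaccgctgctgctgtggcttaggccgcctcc
Member 4 (chr7:54923414-54923482): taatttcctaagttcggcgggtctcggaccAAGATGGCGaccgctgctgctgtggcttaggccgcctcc
These members scored 532, 391, 342 and 318 in the GFP list and 668, 323, 369 and 404 in the SRCAP list. Members 1 and 3 were intergenic, member 2 lay in the body of Rhoj and member 4 in that of Luzp2. The flank upstream of the letters is the capitalised stretch of family 1 with small differences. Of the 60 positions flanking the letters, 34 held 1 base in 80% or more of the 143 copies of the letters in GFP members, and 34 did so in the 122 copies in SRCAP members.

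Members had higher scores than other distal peaks of the same list and were overlapped by the other list somewhat more often. The score is a deposited whole number of unstated meaning, 13 at the least. It was read within a list, apart from a common cutoff of 1000 and the naming of regions by the lower of their scores in both lists. Its median was 54 in GFP members and 43 in other distal GFP peaks, and 53 in SRCAP members against 40 in other distal SRCAP peaks. Median widths were close to those of the other distal peaks, at 292 bp against 290 bp for GFP and 235 bp against 247 bp for SRCAP. Overlap with the other list by 1 bp or more, called shared, was found for 1705 GFP members (56.0%, 95% Wilson interval 54.2 to 57.7%) and 1766 SRCAP members (57.1%, 55.3 to 58.8%). Of the other distal peaks, 50.6% (49.8 to 51.3%) of the GFP list and 52.4% (51.6 to 53.2%) of the SRCAP list were shared. As a background, of 2032273 windows of 300 bp that tile the distal masked sequence of these chromosomes, 0.325% touched a SRCAP peak and 0.376% a GFP peak. The partner of a shared member was itself a member in 90.3% of GFP and 88.2% of SRCAP cases. Intervals cover counting error only, since peaks of 1 library are not replicates, and no test was made.

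In the lowest score quartile of the full list, 21.2% (18.2 to 24.5%) of 651 GFP members were shared, below the 25.9% (24.7 to 27.2%) of other distal peaks. In the highest quartile, 88.8% (86.8 to 90.6%) of 1048 GFP members were shared, above the 85.6% (84.3 to 86.7%) of the rest. SRCAP members went from 28.9% of 714 to 79.3% (76.6 to 81.7%) of 980, and in the highest quartile lay below the 83.6% (82.2 to 84.9%) of other distal peaks. Within a quartile members and other distal peaks were thus within 5 percentage points of each other, and 34.4% of GFP and 31.7% of SRCAP members were in the highest quartile against 19.5% and 18.3% of the rest. Across 1705 shared GFP members the scores in both lists had a Spearman's rank correlation of 0.624, and across 8427 other shared distal peaks 0.474, which describes peaks that share their libraries.

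**Figure D1:**
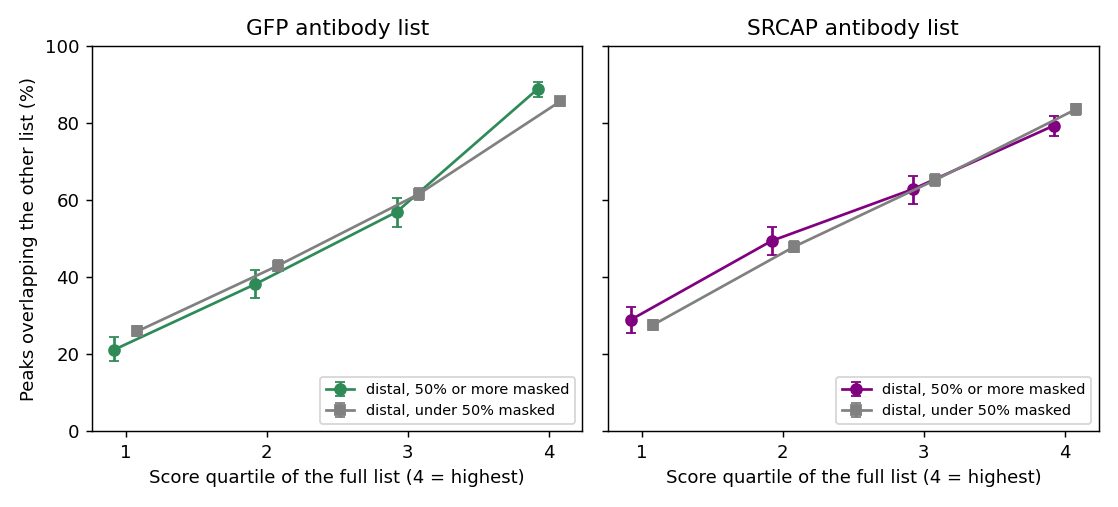
Percent of peaks (y axis) that were shared, by score quartile of the full list (x axis), for distal peaks with 50% or more masked bases (circles) and under 50% (squares), with 95% Wilson intervals as bars. Both classes rose together, from 21.2% to 88.8% in GFP members and from 28.9% to 79.3% in SRCAP members.

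Around the threshold of the rule the values were close. The 320 GFP members with 50 to 55% masked bases had a median score of 46 and were shared in 49.1%, and the 367 distal GFP peaks with 45 to 50% had a median score of 47 and were shared in 45.5%. In the SRCAP list the 297 members just inside scored 43 and were shared in 53.9%, and the 324 just outside scored 42.5 and were shared in 57.1%. Every base was masked in 588 GFP members (19.3%) and 882 SRCAP members (28.5%).

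A few members held very high scores. The same 5 regions led both lists, all of them shared. The highest was chr2:98666272-98667328, scoring 265906 in the GFP library and 249107 in that of SRCAP, at the predicted gene Gm10800, where its midpoint lay in a coding exon 501 bp from a TSS. The next were chr14:19415723-19419419 in an intron of Gm21738 (77331 and 85146), chr9:35305223-35305590 in an intron of Gm33838 (62135 and 63974), chr12:3109871-3110111 (40785 and 42775), which was intergenic, and chr9:3000009-3016556 (16594 and 17801), which was 16548 bp wide and lay in an intron of Gm26870. The sequence at the midpoint of the highest is shown because that one region held so much of the score.
Gm10800 (chr2:98666725-98666874): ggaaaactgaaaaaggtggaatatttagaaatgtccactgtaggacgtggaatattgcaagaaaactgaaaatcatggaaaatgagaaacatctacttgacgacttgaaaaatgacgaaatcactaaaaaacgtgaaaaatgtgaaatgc
These 5 regions had 34 to 36.7% GC in the GFP list, and their scores lay far from those of the bulk of members. Only 18 GFP and 22 SRCAP members scored over 1000, and they held 67.9% and 67.6% of the summed score of members. Known problem regions of the genome were not removed, and no control antibody was used here. The part of such regions in these scores was not tested.

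Among shared members with scores at or under 1000 in both lists, the 5 with the highest lower score were all wholly masked. They were chr3:22715406-22716075 (696 and 762), which was intergenic, chr15:103411849-103412561 in an intron of Gtsf1 (654 and 749), chr3:24985024-24985343 in an intron of Naaladl2 (627 and 859), chr3:80747219-80747491 in an intron of Gria2 (600 and 682) and chr11:26174369-26174692 in an intron of 5730522E02Rik (589 and 655). Gtsf1 encodes a factor of transposon silencing by small RNAs in the germ line, and Gria2 an AMPA receptor subunit. All 5 lay in masked runs of 4771 bp or longer, and the median word of 24 bases in their windows occurred 2076 to 9918 times on chromosomes 1 to 19. The first 2 regions were GC-rich, at 62.3% and 67.3%, and the others held 41.3 to 49% GC.

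Members lay further from TSSs than other distal peaks, and their split between introns and intergenic sequence was close to that of the masked genome. Introns held 36.4% (34.7 to 38.1%) of GFP members and 35.6% (33.9 to 37.3%) of SRCAP members, against 49.0% of other distal peaks in both lists and 34.5% of the masked distal tiles. Intergenic sequence held 61.5% and 62.6% of members, 43.9% and 43.2% of other distal peaks and 64.3% of the tiles. The median distance to the nearest TSS was 13131 bp and 14863 bp in members, and 8895.5 bp and 9230 bp in other distal peaks. It was not measured in the tiles, so whether masked sequence at large lies as far from TSSs was not tested. Coding exons held 10 GFP (0.328%, 0.178 to 0.603%) and 8 SRCAP members (0.259%, 0.131 to 0.509%). These shares were above the 0.0518% of the masked distal tiles and below the 2.66% and 3.04% of other distal peaks.

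In base composition members stood apart from the masked genome. Their median GC content in 300 bp was 46.3% with the GFP and 47% with the SRCAP antibody, with 41.3% in the masked distal tiles and 49% and 50% in other distal peaks. The observed over expected CpG ratio had medians of 0.171 and 0.177 in members, 0.130 in the tiles, and 0.242 and 0.244 in other distal peaks. Short tandem tracts, 24 bp or more of a unit of 1 to 6 bp, were found in 52 GFP members (1.71%, 1.30 to 2.23%) and 40 SRCAP members (1.29%, 0.951 to 1.76%), whereas 12.5% of the masked distal tiles held one. In other distal peaks tracts were rarer than in members, at 0.864% (0.734 to 1.02%) and 0.764% (0.641 to 0.911%). Among members that were 80% or more masked the share was 0.633% and 0.771%. The commonest units were AC, in 15 of the 52 GFP members, and AAAC, in 10 of the 40 SRCAP members.

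Members ranged from unique sequence to sequence with many copies. The median word of 24 bases occurred once in 40.1% of GFP and 34.9% of SRCAP members, 10 times or more in 32.9% and 40.7%, and over 1000 times in 12.9% and 18.0%. In every 100th masked distal tile, the words occurred once in 43.3% and 10 times or more in 41.5%. Of other distal peaks, 0.420% and 0.584% reached 10 copies. Fewer than 1% of the words were unique in 10.7% (9.65 to 11.8%) of GFP members and 16.7% (15.4 to 18.0%) of SRCAP members, and in 15.6% of the tiles.

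The lists differed most in the class of highest copy number. Of members with over 1000 copies, 70.7% (66.0 to 75.0%) of 392 GFP and 49.0% (44.9 to 53.2%) of 557 SRCAP members were shared. Their median scores were the highest of the 5 classes of copy number, 76 and 82, against 44 and 40 for members of unique sequence. Members found with the SRCAP antibody only lay in masked runs of 5000 to 7500 bp in 22.0% (19.8 to 24.3%) of 1328 cases, and those found with the GFP antibody only in 9.99% (8.49 to 11.7%) of 1342. How reads with several placements were treated for CUT&RUN is not given in the sources used here, and its part in these values was not tested.

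Within long masked runs, members gathered at the ends. A masked run is an unbroken stretch of lower-case bases, which may join several elements. The run at the midpoint had a median of 131 bp in GFP members and 152 bp in SRCAP members, midpoints in unmasked bases counted as 0, and of 227 bp in the masked distal tiles. Runs of 5000 to 7500 bp held 375 GFP members (12.3%, 11.2 to 13.5%) and 535 SRCAP members (17.3%, 16.0 to 18.7%), and 9.55% of the tiles. This class was chosen after its values were seen. Of the GFP members in such runs, 208 (55.5%, 50.4 to 60.4%) had their midpoint within 500 bp of a run end, and of the SRCAP members 237 (44.3%, 40.1 to 48.5%). The tiles of these runs lay there in 15.6%, and were spread evenly over the rest of the run. Read the other way, 1.33% (1.21 to 1.47%) of the tiles at run ends and 0.217% (0.195 to 0.240%) of those further inside touched a GFP peak, and 1.42% (1.29 to 1.56%) and 0.342% (0.315 to 0.371%) a SRCAP peak.

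**Figure D2:**
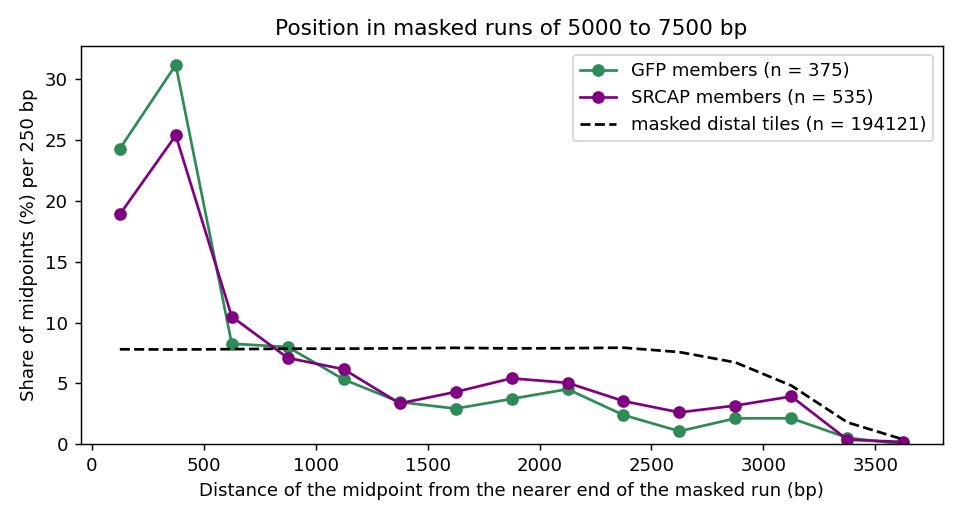
Distance of the midpoint from the nearer end of the masked run (x axis, bp) and share of midpoints per 250 bp (y axis, %), for members and for the masked distal tiles in runs of 5000 to 7500 bp. The first 2 bins held 24.3% and 31.2% of GFP members and 18.9% and 25.4% of SRCAP members, against 7.81% and 7.79% of tiles, whose line falls only near the middle of the shorter runs.

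Members at the run ends differed from those further inside in composition, copy number and score. Their median GC was 62.7% for GFP and 62% for SRCAP members, against 43.7% and 40.7% further inside and 48.3% in the tiles at run ends. Their windows had a median of 1659 and 1149 copies, and those further inside 4885 and 5218. Their scores were lower, with medians of 47 and 40 against 101 and 89. Sharing was 55.8% (49.0 to 62.4%) at the ends and 74.9% (67.8 to 80.8%) further inside in the GFP list, and 47.3% (41.0 to 53.6%) and 44.0% (38.4 to 49.6%) in the SRCAP list.

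Of the consensus letters searched, those of YY1 were the commonest in members of both lists, though only a small share held them. YY1 is a zinc finger factor that activates or represses genes and is known to bind promoters of long interspersed elements. The letters were found in 143 GFP members (4.69%, 4.00 to 5.50%) and 121 SRCAP members (3.91%, 3.28 to 4.65%), in 0.583% of the masked distal tiles, and in 0.132% and 0.193% of other distal peaks. Among members that were 80% or more masked they reached 8.52% and 6.64%. Of these members, 94 of 143 and 83 of 121 lay in runs of 5000 to 7500 bp. At the ends of such runs 35.1% (28.9 to 41.8%) of 208 GFP members and 28.7% (23.3 to 34.8%) of 237 SRCAP members held the letters, against 12.6% (12.3 to 13.0%) of the tiles there. Further inside, 12.6% (8.37 to 18.5%) of 167 GFP members and 5.03% (3.07 to 8.14%) of 298 SRCAP members held them, and 0.845% of the tiles. Of the tiles with the letters at run ends, 3.50% (2.96 to 4.13%) touched a GFP peak and 3.32% (2.80 to 3.93%) a SRCAP peak.

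The letters had 1 orientation. At run ends AAGATGGCG read from the middle towards the nearer end of the run in 72 of 73 copies in GFP members and in 69 of 69 copies in SRCAP members. Members with the letters were GC-rich, with medians of 63.3% and 63%, and had median scores of 47 and 53. They were shared in 54.5% (46.4 to 62.5%) and 62.8% (53.9 to 70.9%) of cases, and their intervals include the share of all members. A match of these letters does not show that YY1 was bound.

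The CTCF consensus, searched as its standard consensus on both strands, was rarer in members than in other distal peaks but commoner than in the masked distal tiles. CTCF is the zinc finger protein of insulators and loop anchors. It was found in 13 GFP members (0.427%, 0.250 to 0.729%) and 17 SRCAP members (0.549%, 0.343 to 0.878%), in 2.86% (2.61 to 3.12%) and 5.12% (4.79 to 5.47%) of other distal peaks, and in 0.0498% of the masked distal tiles. In members that were 80% or more masked it fell to 0.0704% (0.0124 to 0.398%) of 1421 GFP and 0.0593% (0.0105 to 0.335%) of 1686 SRCAP members. These intervals include the share of the tiles.

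Of the other consensus letters, those of the pluripotency factor ESRRB (TCAAGGTCA) were found in 25 members of each list (0.820%, 0.556 to 1.21%, and 0.808%, 0.548 to 1.19%), close to other distal peaks (0.708% and 0.590%) and above the tiles (0.379%). The NFY letters (CCAATCAG) were in 1.35% and 1.10% of members, 1.64% and 1.52% of other distal peaks and 0.851% of tiles. The OCT4 octamer (ATGCAAAT) was in 2.23% (1.76 to 2.82%) and 1.78% (1.37 to 2.31%) of members, in 2.74% (2.50 to 3.00%) and 2.70% (2.46 to 2.96%) of other distal peaks and in 2.43% of tiles. The B box of RNA polymerase III promoters (GTTCGANNC) was in 1.38% (1.02 to 1.86%) and 1.33% (0.978 to 1.79%) of members, above the 0.336% and 0.311% of other distal peaks and below the 2.26% of tiles. The SP/KLF letters (GGGGCGGGG), which mark GC-rich promoters, were in 4 GFP and 6 SRCAP members (0.131%, 0.0511 to 0.337%, and 0.194%, 0.0889 to 0.422%), close to the 0.189% of tiles and below the 1.09% and 1.34% of other distal peaks. Those of the neuronal gene repressor REST (TTCAGCACC) were in 5 and 3 members (0.164%, 0.0701 to 0.384%, and 0.0970%, 0.0330 to 0.285%), in 0.181% of tiles and in 0.336% and 0.460% of other distal peaks. The letters of the cyclic AMP response element (TGACGTCA) were in 1 and 3 members (0.0328% and 0.0970%), in 0.0926% of tiles and in 0.216% and 0.205% of other distal peaks. Those of ZNF143 (ACTACAATT) were in 1 and 1 (0.0328% and 0.0323%), in 0.0741% of tiles and in 0.0960% and 0.0932% of other distal peaks. Those counts in members are too low to set apart from the tiles. The letters of ETS factors (CCGGAAGTG) and of USF (GTCACGTGA) were each in 1 GFP and 0 SRCAP members. Those of NRF1 (GCGCATGCG) were in 0 and 0. Tiles held the letters of ETS, USF and NRF1 in 0.0114%, 0.0191% and 0.0156%, so these counts too are too low to set apart from the tiles. Other distal peaks held them in 0.180% and 0.118%, 0.204% and 0.168%, and 0.138% and 0.211%.

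**Figure D3:**
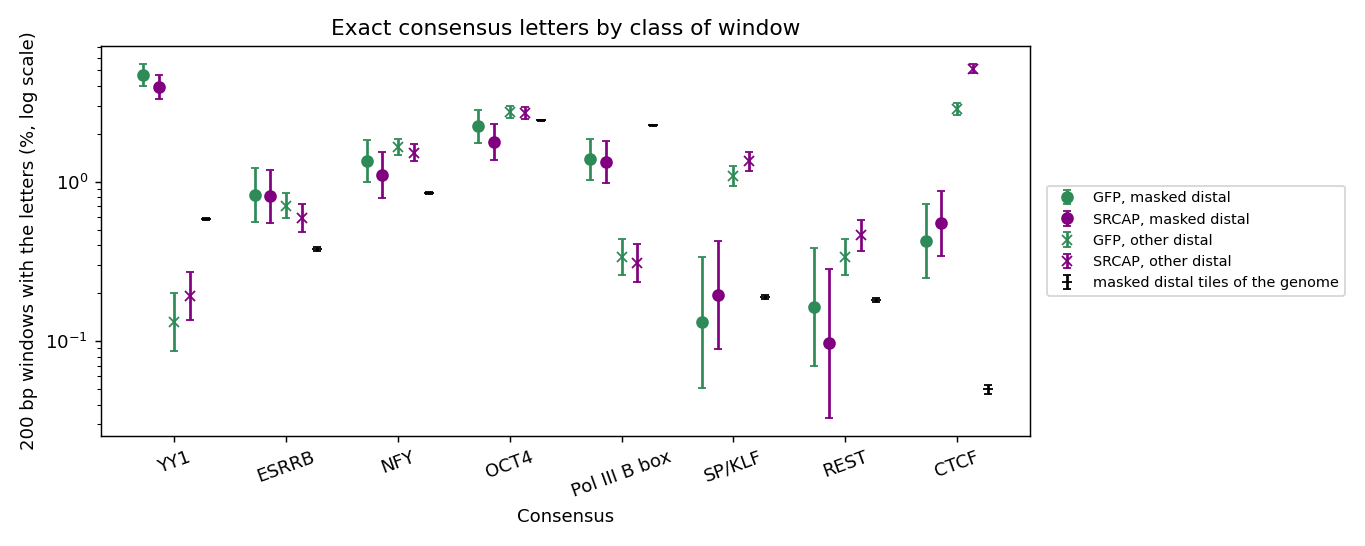
Percent of 200 bp windows with the exact letters of each consensus (y axis, log scale), for masked distal members (circles), other distal peaks (crosses) and the masked distal tiles (dashes), with 95% Wilson intervals as bars. YY1 lay highest in members, at 4.69% and 3.91% against 0.583% of tiles, and CTCF in other distal peaks, at 2.86% and 5.12%.

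The families differed widely in how many of their copies held a peak. Copies of a seed were merged blastn matches of 80 bp or more at 80% identity or more on chromosomes 1 to 19, and a copy held a peak when any peak of the list overlapped it. A genome match can run on beyond the window used to form the family and then fall under 80% identity, so the copies did not hold all loci of each family. They held 352 of 355 loci in family 1, 312 of 314 in family 2, 163 of 306 in family 3, 226 of 231 in family 4 and 146 of 167 in family 5, and at 70% identity or more they held all loci of the 12 largest families. Each seed was itself a locus with a member, chosen for most matches among such loci. Part of the share of copies with a peak therefore follows from that choice. Family 5, with 763 copies, led in both lists, with a GFP peak on 317 copies (41.5%, 38.1 to 45.1%) and a SRCAP peak on 266 (34.9%, 31.6 to 38.3%). Of its copies with a SRCAP peak, 91.7% held a peak of both lists. Family 2 held a GFP peak on 429 of 1831 copies (23.4%, 21.5 to 25.4%) and a SRCAP peak on 345 (18.8%, 17.1 to 20.7%). At 70% identity these shares were 32.8% and 26.4% of 1486 copies in family 5 and 20.2% and 16.1% of 2823 in family 2. Copies aligned over 250 bp or more held a peak more often, and have more bases for a peak to overlap. A GFP peak lay on 83 of 154 (53.9%, 46.0 to 61.6%) in family 5 and 29 of 61 (47.5%, 35.5 to 59.8%) in family 2, closer to each other than over all copies. A SRCAP peak lay on 43.5% (35.9 to 51.4%) and 26.2% (16.8 to 38.4%), no closer than over all copies. Outside chromosome 8, the shares over all copies were 40.9% and 34.2% in family 5 and 23.1% and 18.6% in family 2.

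Members of families 2 and 5 were alike in several readouts. Family 5 had 153 GFP and 124 SRCAP members, with median scores of 83 and 60, a median GC of 41.3% in both lists and medians of 5 and 3 copies per word. Family 2 had 264 GFP and 233 SRCAP members, with median scores of 79.5 and 70, a median GC of 44% and 45.3%, and a median of 3 copies per word in both lists. The SRCAP members of these families were shared in 89.5% (82.9 to 93.8%) and 85.4% (80.3 to 89.4%) of cases, and the GFP members in 73.2% (65.7 to 79.6%) and 72.3% (66.7 to 77.4%), above all members of their lists. None lay in a run of 5000 to 7500 bp. The median run at their midpoints was 114 to 128 bp.

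Family 1 held most of the members with the YY1 letters, 126 of 143 GFP members and 106 of 121 SRCAP members. It had 236 GFP and 256 SRCAP members, of which 53.4% (47.0 to 59.6%) and 41.4% (35.5 to 47.5%) held the letters. Members of a family share sequence, and the share of all copies of family 1 with the letters is not given here. Their median GC was 62.5% and 62.3%, and 54.2% and 56.2% of them lay in runs of 5000 to 7500 bp. They were shared in 58.5% and 55.9% of cases. A GFP peak lay on 514 of 10207 copies (5.04%, 4.63 to 5.48%) and a SRCAP peak on 495 (4.85%, 4.45 to 5.28%). Copies with a peak of either list, 751 in all, and those with none had the same median identity to the seed, 85.5%.

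Family 3 was also GC-rich, with medians of 60.7% and 60%, and 34.2% and 37.3% of its 219 GFP and 228 SRCAP members lay in runs of 5000 to 7500 bp, but none held the YY1 letters. A GFP peak lay on 174 of 3269 copies (5.32%, 4.60 to 6.15%) and a SRCAP peak on 175 (5.35%, 4.63 to 6.18%), with only 163 of its 306 loci on those copies. At 70% identity, where every locus of the family lay on a copy, 291 of 7786 copies (3.74%, 3.34 to 4.18%) held a GFP peak and 298 (3.83%, 3.42 to 4.28%) a SRCAP peak. Of 345 copies aligned over 250 bp or more, 38 (8.13 to 14.8%) held a GFP peak and 29 (5.92 to 11.8%) a SRCAP peak. Of its members, 65.3% and 61.8% were shared.

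Family 4 had 252424 copies, of which 0.297% (0.276 to 0.319%) held a GFP peak and 0.164% (0.149 to 0.181%) a SRCAP peak, and of the 64 aligned over 250 bp or more 2 and 0 did. These shares of all copies were below the 0.376% and 0.325% of the masked distal tiles, though a tile of 300 bp is a different unit. Its 165 GFP and 98 SRCAP members had the lowest median scores of the 5 families, 35 and 40, and were shared in 27.3% (21.1 to 34.5%) and 42.9% (33.5 to 52.7%) of cases. Introns held 55.2% and 56.1% of them, and the median distance to the nearest TSS was 5749 bp and 6142.5 bp. The B box letters were found in 9.09% (5.59 to 14.5%) and 8.16% (4.19 to 15.3%), against 2.26% of the tiles. The share of all copies of family 4 with these letters is not given here. Families were chosen by size among the members, so their counts of members and shares of copies with a peak are a description. A longer or shorter seed would give other numbers of copies.

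**Figure D4:**
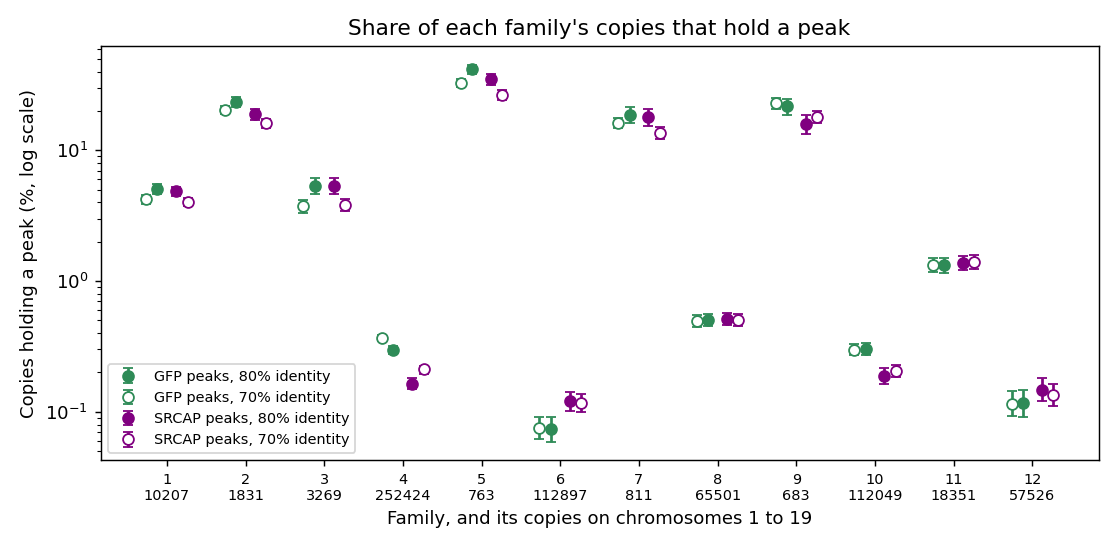
Percent of the genome copies of each of the 12 largest families (x axis, with the number of copies) that held a GFP or SRCAP peak (y axis, log scale), at 80% identity or more (filled) and at 70% or more (open), with 95% Wilson intervals as bars. Family 5 lay highest at 41.5% and 34.9%, and families 6 and 12 lowest, at 0.0735% and 0.116% for GFP and 0.120% and 0.148% for SRCAP.

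Members were denser on chromosome 8 than elsewhere. It held 316 GFP and 361 SRCAP members, or 10.4 and 11.9 per Mb of masked distal tiles. The other chromosomes ranged from 3.64 to 6.24 per Mb for GFP and from 3.31 to 6.28 for SRCAP members, and together gave 4.71 and 4.72. Other distal peaks were denser there too, at 18.0 and 21.6 per Mb of other distal tiles against 9.53 and 8.96 on the other chromosomes together. Without chromosome 8, the percentages of members that were shared, intronic or held a tract, the CTCF consensus or the YY1 letters stayed within their intervals. The cause of the density was not tested.

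**Figure D5:**
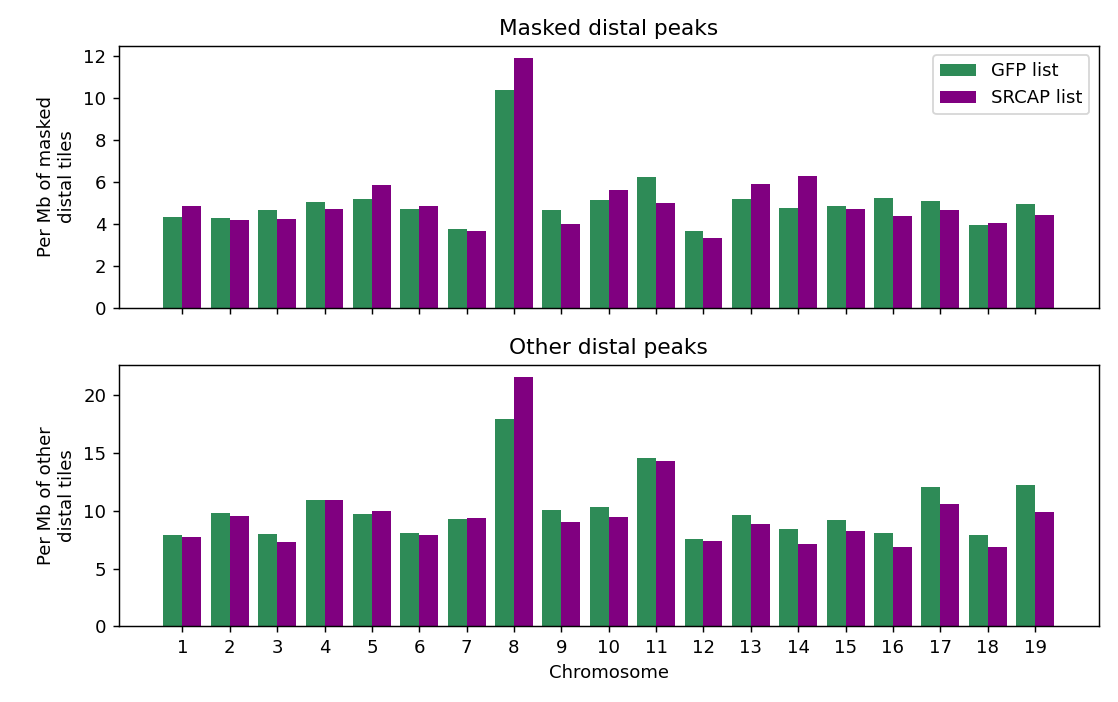
Masked distal peaks per Mb of masked distal tiles (upper bars) and other distal peaks per Mb of other distal tiles (lower bars) on chromosomes 1 to 19, for both lists. Chromosome 8 stood above all others, at 10.4 and 11.9 per Mb in members and 18.0 and 21.6 per Mb in other distal peaks.

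Few genes held several members. Of 20780 protein-coding genes on these chromosomes, 3.80% had a GFP member with its midpoint in the gene body and 3.60% a SRCAP member. The gene models with most members were Gm20388, Cbfa2t2, Naaladl2, Sycp1 and Gm15319 in the GFP list and Gm20388, Gm31371, Gm15319, Naaladl2 and Nrg1 in the SRCAP list, with ties taken in the order of symbols. Gm20388 is a model of 4434.9 kb on chromosome 8 and held 8 GFP and 7 SRCAP members. Gm15319 and Gm31371, also on chromosome 8, are much shorter, at 25.5 kb and 22.3 kb. Gm15319 held 5 GFP and 6 SRCAP members and Gm31371 5 and 7, of which 5 were shared in each gene and list. Naaladl2, of 1346.2 kb, held 6 GFP members with scores of 95 to 627 and 5 SRCAP members with scores of 97 to 859, of which 5 and 5 were shared. Cbfa2t2, a transcriptional corepressor, held 6 GFP members with scores of 17 to 67, of which 3 were shared, and Sycp1, a protein of the synaptonemal complex, held 6 with scores of 22 to 143, of which 1 was shared. Nrg1, which encodes the growth factor neuregulin, held 5 SRCAP members with scores of 23 to 304, of which 3 were shared.

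Each gene list held 0 to 2 genes with a member, counts too low to set apart from the 3.80% and 3.60% of all protein-coding genes. Of 18 pluripotency regulators, 0 held a GFP member and 2 a SRCAP member. These were Tet2, which oxidises methylated cytosine, with an intronic member at chr3:133518545-133519032 (score 49, shared), and Stat3, the effector of LIF signalling, with one at chr11:100929123-100929328 (score 18, not shared). Of 24 genes of repeat silencing, Setdb1 and Zfp809 held a GFP member and Smchd1 a SRCAP member. The intronic member of Setdb1, an H3K9 methyltransferase, was at chr3:95350387-95350579 (score 43) and that of Zfp809, a KRAB zinc finger protein that recognises retroviral sequence, at chr9:22240023-22240404 (score 37), and neither was shared. The member of Smchd1, a non-canonical SMC protein of silencing, was at chr17:71420350-71420547 (score 41) and was shared. The SRCAP members of Tet2 and Smchd1 were thus overlapped by a GFP peak, though neither gene body held a GFP member under the rule. Of 9 genes that the study names as raised on loss of SRCAP, 0 held a member in either list.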

How the data were processed

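CUT&RUN peaks of SYAT mESCs were taken as deposited, 1 list per antibody (2 libraries in all), grouped by the titles. Per the labels, 100000 cells were fixed in 0.1% formaldehyde for 5 min, the antibody was diluted 50-fold, and inserts of 250 bp were read as pairs of 75 nt. The submitters' processing notes name STAR, Picard and MACS2 and the builds mm10 and dm6. Which settings and which control made these lists is not given in the sources used here. The ChIP-seq methods of the study keep uniquely mapped reads, which is not stated for CUT&RUN. The deposited score of each peak was written by the authors as a whole number of unstated meaning and was not rescaled. No read counts were in the lists, so library depth is unknown.

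Masked bases, GC, motifs, tracts and runs were read from GRCm38.p6 of RefSeq, whose mask covered a mean of 33.5% of the 7986009 tiles of 300 bp without N. Of these, 25.4% were distal and 50% or more masked. Peaks were placed at their midpoints. Genes are those of GENCODE vM21. Words of 24 bases were counted on chromosomes 1 to 19. Families were built by taking the locus with most matches as seed (blastn 2.17.0, word size 11, also for the genome), removing its matches and repeating. Python 3.11.15, numpy 2.4.6, pandas 2.3.3, scipy 1.17.1, numba 0.67.0 and matplotlib 3.10.9 were used. Overlaps were checked against bedtools 2.31.1, and the motif, tract and overlap steps were tested on simulated data.

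Percentages carry 95% Wilson intervals. With 1 library per antibody, no test was made and no p-value is given. The members, the motifs and the gene lists were chosen with earlier results of these data known. Regions were named by rule as the 5 of highest score in each list, the 5 shared members with the highest lower score at or under 1000 and the seeds of the 5 largest families, and genes as the 5 with most members and the members of 3 fixed lists. The 4 regions with the YY1 letters were chosen after values were seen.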

Additional observations from a re-analysis of the deposited data

How the results depend on the processing

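Of 89 alternative values for members and loci, 54 stayed within the 95% interval of the value reported, or within 1.5 times a count, and 35 moved. Requiring 80% masked bases left 1421 GFP and 1686 SRCAP members, with 58.8% and 54.0% shared, tandem tracts in 0.633% and 0.771%, introns in 32.1% and 31.9%, the CTCF consensus in 0.0704% and 0.0593%, the YY1 letters in 8.52% and 6.64%, and a median run of 397 bp and 635.5 bp. Peaks at or above the median score left 1832 and 1808 members, with 74.1% and 70.5% shared, tracts in 1.26% and 0.830%, a median run of 143 bp and 169 bp, and 47.5% and 31.1% of members in long runs near a run end. GFP members then had introns in 34.2% and the CTCF consensus in 0.164%. Leaving out 2500 bp either side of any TSS gave 34.7% of GFP members in introns. A reciprocal overlap of 50% gave 43.6% and 42.8% shared, and midpoints at most 200 bp apart 53.5% and 53.6%. Searching the whole peak gave the CTCF consensus in 0.985% of GFP members, tracts of 40 bp were found in 0.689% and 0.323%, and families at 70% identity put 37.5% of loci in the 5 largest. Without chromosome 8, and without scores over 1000, no value moved. Of 38 alternative shares of family copies with a peak, over copies of 70% identity or aligned over 250 bp, 23 moved out of the interval. The alternatives for the YY1 letters, the run ends and the family copies were added after seeing the data.

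The lists give no depth, and sharing follows the score. Peaks of 1 library are not replicates. Masked runs are not elements, the families carry no repeat annotation, and the placement of reads in sequence with many copies is unknown. No paired analysis was possible because there was 1 library for each antibody.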

Other observations

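The families from 6 to 12 in order of size also differed in the share of their copies that held a peak. Families 7 and 9, with 811 and 683 copies, lay near family 2. A GFP peak lay on 18.7% (16.2 to 21.6%) and 21.7% (18.7 to 24.9%) of their copies, and a SRCAP peak on 17.9% (15.4 to 20.7%) and 15.8% (13.3 to 18.7%). Their SRCAP members were shared in 78.7% (68.1 to 86.4%) and 89.6% (77.8 to 95.5%) of cases. The median GC of family 7 was 50.7% in both lists, and that of family 9 was 40.3% and 41.3%.

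Families 6, 8, 10 and 12 had 57526 to 112897 copies, of which 0.0735 to 0.504% held a GFP peak and 0.120 to 0.513% a SRCAP peak. Of the masked distal tiles, a different unit, 0.376% and 0.325% touched one. Families 6, 10 and 12 lay below these shares and family 8 above. Family 8 held the B box letters in 9 of 44 GFP members and 13 of 59 SRCAP members, against 2.26% of the tiles. Family 12 held the OCT4 octamer in 13 of 38 GFP members (34.2%, 21.2 to 50.1%) and 15 of 50 SRCAP members (30%, 19.1 to 43.8%), while none of the members of families 1, 2, 3 and 5 did. Of the tiles, 2.43% held it. Members of a family share sequence, so letters of that sequence recur among them. The shares of all copies of families 8 and 12 with these letters are not given here. Its members had median scores of 122.5 and 117.5 and a median of 12515.5 and 12500 copies per word. Copies of family 12 that held a peak, 106 in all, had a median identity to its seed of 97.7%, and those with none 93.3%. The seed is itself a locus with a member, chosen for most matches among such loci, so this contrast depends on that choice. Family 11, with 18351 copies, held a GFP peak on 1.32% (1.16 to 1.49%) and a SRCAP peak on 1.37% (1.21 to 1.55%) of copies, but on 10 of 44 (22.7%, 12.8 to 37.0%) and 9 of 44 (20.5%, 11.2 to 34.5%) of those aligned over 250 bp or more. Its GFP members were shared in 83.3% (70.4 to 91.3%) of cases.

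No member of either list overlapped any of the 386 tRNA genes that RefSeq places on these chromosomes, with intervals reaching 0.126% and 0.124%. Of the other distal peaks, 7 GFP (0.0420%) and 5 SRCAP (0.0311%) did, shares that lie within those intervals. Of the 1010 enhancer features of RefSeq there, 2 GFP members and 1 SRCAP member overlapped one (0.0656% and 0.0323%), against 120 and 109 other distal peaks (0.720% and 0.677%). The share of the masked distal tiles is not given for these features, so whether they are as rare in masked sequence at large was not tested.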
